A study of Mus musculus with 20 samples.

Results

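The 6 genes described here, C1qtnf3, Sparcl1, Kazald1, Pamr1, Acaa1b and Mir100hg, were chosen by their array signals, as genes whose group level was higher with the fusion gene CIC-DUX4. They were selected on being higher in embryonic mesenchymal cells (eMC) 48 h after transduction with CIC-DUX4 than in eMC with the empty vector, and in CDS tumors than in eMC empty and than in ES tumors. Each has 1 probe set on the array, and they are 6 of the 12343 genes tested. All 6 passed the filter on low values. Those 3 contrasts chose the genes, so the values of the 6 genes in them are given as a description, with no test. CDS tumors against eMC CIC-DUX4 and ES tumors against eMC empty were not contrasts of the choice and were tested. Their groups all entered the choice, so the results of the 6 genes in them are not independent of it.

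RNA of 20 mouse samples had been hybridised to 1 Affymetrix array each. The 6 CDS tumors (CIC-DUX4 sarcoma) grew from murine eMC that carried the fusion and had been transplanted under the skin of Balb/c nude mice, which lack mature T cells. The 6 ES tumors are mouse Ewing sarcomas, which share the host and site of growth per the labels, and the oncogene behind them is not given in the sources used here. The 4 eMC CIC-DUX4 samples are primary mesenchymal cells in culture (Iscove's modified DMEM with 15% serum), collected 48 h after spinofection with the retrovirus pMYs-CIC-DUX4-IRES-GFP. The 4 eMC empty samples were treated alike with pMYs-IRES-GFP, so that the GFP cassette was in both eMC groups. The labels do not state the share of transduced cells, the age or number of embryos, or whether each eMC sample is a culture of its own, and the p-values cover no more than the spread between these samples, which may be technical. In bulk RNA, fewer cells of a type and less RNA per cell cannot be told apart.

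CIC is a repressor that binds short sites with the core TGAATGAA or TGAATGGA. Fusion to the C-terminal part of DUX4, a strong activator, turns it into an activator of the genes it normally silences, and it is the defining oncoprotein of a group of small round cell sarcomas. The 6 genes are not the textbook CIC targets. C1qtnf3 encodes CTRP3, a secreted C1q and TNF related protein that was first studied in cartilage. Sparcl1 (hevin) encodes a matricellular protein of the SPARC family, found in vessel walls and brain. Kazald1 encodes a secreted protein with an insulin-like growth factor binding domain, a Kazal domain and an immunoglobulin domain. Pamr1 encodes a secreted protein with CUB, EGF and sushi domains and a protease-like domain, named for its link to muscle regeneration. Acaa1b encodes a peroxisomal 3-ketoacyl-CoA thiolase, which carries out the last step of fatty acid beta oxidation in peroxisomes. Mir100hg is a long noncoding RNA and the host of a microRNA cluster.

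In the mouse assembly GRCm38.p6, Mir100hg lies at chr9:41376526-41615185. The RefSeq table places 3 microRNA hairpins on its strand within it, Mir100, Mirlet7a-2 and Mir125b-1. Their main mature products are shown because the host transcript is the feature the array measured, and the microRNAs themselves were not measured. The capitals mark the seed, bases 2 to 8. The mature let-7a is listed under another locus and was found letter for letter in the Mirlet7a-2 hairpin. The 3 seeds differ from one another. The RefSeq positions are chr9:41531437-41531458, chr9:41536732-41536753 and chr9:41581940-41581961, all on the plus strand.
mmu-miR-100-5p: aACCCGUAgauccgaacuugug
mmu-let-7a-5p: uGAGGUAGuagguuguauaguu
mmu-miR-125b-5p: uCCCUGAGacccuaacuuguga

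Promoters of the same RefSeq table (GRCm38.p6, 250 bases before to 50 bases after a start) were available for 4 of the 6 genes, as 6 promoters, and Sparcl1 and Pamr1 had no entry. The letters TGAATGAA, TGAATGGA, TCAATGAA and TCAATGGA were searched on both strands, with overlapping matches kept. The promoter of Acaa1b was the 1 of 6 that held a match, while 3.84% of all 32851 promoters did. The promoter, at chr9:119157044-119157343 on the minus strand, is shown because it holds that match, in capitals, which begins 105 bases before the start of the gene. The capitals TTCATTGA are TCAATGAA on the other strand. With the looser letters TNAATGAA and TNAATGGA, the share of all promoters was 7.28% and again 1 of the 6 promoters matched. A match of letters does not show a bound site.
Acaa1b promoter: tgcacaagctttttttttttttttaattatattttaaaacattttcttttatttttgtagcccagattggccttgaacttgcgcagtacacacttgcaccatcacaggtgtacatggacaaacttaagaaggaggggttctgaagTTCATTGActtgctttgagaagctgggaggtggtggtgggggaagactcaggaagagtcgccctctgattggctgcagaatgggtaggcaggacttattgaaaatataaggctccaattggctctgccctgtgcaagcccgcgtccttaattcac

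The other 4 protein-coding genes lie at chr15:10952119-10980162 (C1qtnf3), chr5:104079108-104114088 (Sparcl1), chr19:45074962-45079289 (Kazald1) and chr2:102549939-102643041 (Pamr1). Acaa1b lies at chr9:119148043-119157093, far from Mir100hg on the same chromosome. Its close paralog Acaa1a lies at chr9:119341028-119350296. The Acaa1b probe set may share some signal with Acaa1a transcripts, which the files do not settle. Of the 4 Acaa1a probe sets, the tested one averaged 10.99 in CDS tumors, 9.85 in ES tumors, 11.77 in eMC CIC-DUX4, with 11.36 in eMC empty, and was bright in all 4 groups. Another, of a kind that can pick up related transcripts, averaged 8.29 in CDS tumors, 6.60 in ES tumors, 8.15 in eMC CIC-DUX4, with 4.77 in eMC empty, and ranked the groups with the fusion above the others as Acaa1b did. One more did not, as it averaged 8.96 in CDS tumors, 8.95 in ES tumors, 11.18 in eMC CIC-DUX4, with 10.21 in eMC empty. The last, also of a kind that can pick up related transcripts, averaged 3.17 in CDS tumors, 2.18 in ES tumors, 5.60 in eMC CIC-DUX4, with 2.67 in eMC empty. At these low means it, too, ranked the groups with the fusion above the others.

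Levels are log2 signals with an offset of 1.42 added on the linear scale. The arrays had the same trimmed mean but not the same distribution. The 75th percentile of the log2 signal ran from 4.83 to 8.92 over CDS tumors, 7.52 to 8.65 over ES tumors, 8.53 to 8.94 over eMC CIC-DUX4 and 4.10 to 6.97 over eMC empty. Each fold change is therefore given on the deposited scale and after quantile normalization of the log2 values ("quantile"). The median fold change of all genes was 2.07 in eMC CIC-DUX4 against eMC empty as deposited, and 0.01 after quantile normalization. It was 0.89 and -0.10 in CDS tumors against eMC empty, and 0.02 and -0.03 in CDS against ES tumors. In the tested comparisons it was -0.92 and -0.06 (CDS tumors against eMC CIC-DUX4) and 0.64 and -0.04 (ES tumors against eMC empty). A signal was called dim when it lay below the dip between the dim and the bright probe sets of its own array. Where every array of the lower group was dim, a fold is printed as "at least", against the higher of dip and signal. Where only some arrays of the lower group lay above the dip, their number is given, and the log2 difference rests in part on dim signals. Replicate 6 of eMC CIC-DUX4 showed no such dip, so such counts cover 3 arrays of that group. The 3 arrays of high median, with a median log2 signal over 5, were CDS tumor 2 and replicates 5 and 6 of eMC CIC-DUX4. Actb, whose 3′ probe sets exceed its 5′ ones where RNA is degraded, showed a difference of 0.80 ± 0.36 log2 over CDS tumors (SD, n = 6) and 0.25 ± 0.05 over ES tumors (n = 6), 0.22 ± 0.02 over eMC CIC-DUX4 (n = 4) and 0.17 ± 0.03 over eMC empty (n = 4), and its part in the results was not tested.

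**Figure D1:**
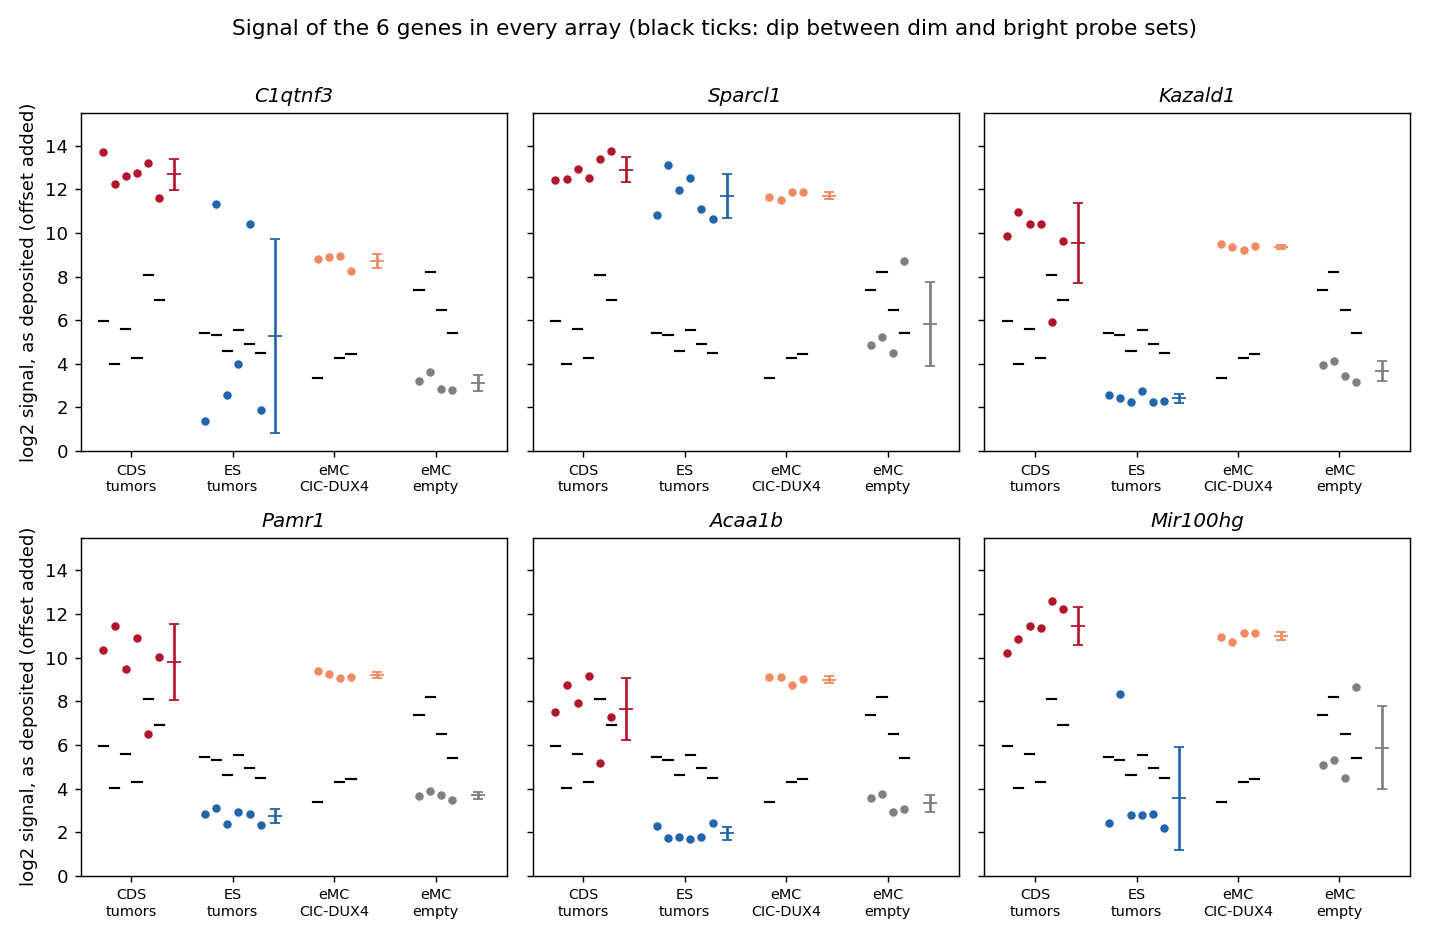
Log2 signal (deposited scale with the offset added, vertical axis) of the 6 genes in each of the 20 arrays, by group along the horizontal axis. Points are arrays, bars are the mean ± SD of the group (n = 6, 6, 4 and 4), and black ticks give each array's dip between dim and bright probe sets. In ES tumors Kazald1, Pamr1 and Acaa1b lie below the dip in all 6 arrays, while Sparcl1 lies above it in all 6.

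C1qtnf3 was brightest in CDS tumors, with a lowest value of 11.61, a median of 12.67 and a highest of 13.69. In ES tumors the lowest was 1.39, the median 3.28 and the highest 11.35. The eMC CIC-DUX4 arrays 5 to 8 had 8.79, 8.90, 8.93 and 8.25, and the eMC empty arrays 4 to 7 had 3.21, 3.62, 2.85 and 2.79. ES tumors fell apart on this gene: ES tumors 46 (11.35) and 49 (10.39) were bright, and the other 4 (1.39 to 3.97) were dim like eMC empty. Group means were 12.68 ± 0.73 in CDS tumors (SD, n = 6), 5.26 ± 4.44 in ES tumors (n = 6), 8.72 ± 0.32 in eMC CIC-DUX4 (n = 4) and 3.12 ± 0.38 in eMC empty (n = 4). The CDS range overlapped with no other group, whereas the ES range spanned all values of eMC CIC-DUX4 and of eMC empty. As a description, C1qtnf3 in eMC CIC-DUX4 exceeded its level in eMC empty at least 3.62-fold (log2 5.60, quantile 3.46). In CDS tumors it was at least 56.7-fold higher than in eMC empty (9.57, quantile 8.90), and its log2 difference from ES tumors was 7.42 ± 1.45 (SE, quantile 6.89).

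C1qtnf3 rose further in the tumors: it was 3.97 ± 0.39 log2 (SE) higher in CDS tumors than in eMC CIC-DUX4, a 15.7-fold difference with every CDS array above every eMC CIC-DUX4 array (limma, Benjamini-Hochberg adjusted p = 1.67e-05). After quantile normalization the difference was 5.44 (adjusted p = 9.67e-08). Between ES tumors and eMC empty the difference was 2.15 ± 1.91 (limma, adjusted p = 0.355) and did not pass. It was 0.93 (limma, adjusted p = 0.620) without ES tumor 46 and 1.12 (0.592) without ES tumor 49.

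Sparcl1 was bright in 3 of the 4 groups. Its lowest, median and highest values were 12.41, 12.72 and 13.76 in CDS tumors and 10.66, 11.54 and 13.11 in ES tumors. It had 11.66, 11.49, 11.86 and 11.86 in eMC CIC-DUX4 and 4.86, 5.23, 4.51 and 8.71 in eMC empty. Only the eMC empty arrays were low, and among them replicate 7 stood above its dip of 5.40 while the other 3 lay below theirs. The group means were 12.91 ± 0.56 in CDS tumors (SD, n = 6), 11.70 ± 1.00 in ES tumors (n = 6), 11.72 ± 0.18 in eMC CIC-DUX4 (n = 4) and 5.83 ± 1.95 in eMC empty (n = 4). CDS and ES tumors overlapped, with ES tumor 46 (13.11) above 4 of the 6 CDS tumors, and ES tumors spanned the values of eMC CIC-DUX4. The described log2 difference was 5.89 ± 0.85 (SE, quantile 3.82) between eMC CIC-DUX4 and eMC empty and 7.08 (quantile 4.75) between CDS tumors and eMC empty. Between CDS and ES tumors it was 1.21 ± 0.40 (quantile 1.23), and 0.04 with the arrays scaled to the same median, a scaling that moved the median of all genes to -1.11.

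In the tested comparisons, Sparcl1 rose in ES tumors against eMC empty by 5.87 ± 0.80 log2 (SE, limma, adjusted p = 0.000129, quantile 3.52 and 0.000285). All 6 ES arrays were above all 4 eMC empty arrays. In eMC empty 1 of the 4 arrays was above its dip, so no fold is given. It also rose in CDS tumors against eMC CIC-DUX4, by 1.19 ± 0.29 (limma, adjusted p = 0.0120), with no overlap of the arrays. That call rests on the setting. After quantile normalization the difference was 0.93 (limma, adjusted p = 0.000953), under the required log2 difference of 1. The adjusted p (limma) was 0.0582 without the trend in the spread, 0.148 with all 4 groups in the same fit and 0.117 when the 3 arrays of high median were left out, and 0.563 with the arrays scaled to the same median.

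Marker sums are the log2 of the summed linear signals, in which the brightest markers weigh most. For 10 endothelial markers the sum was 14.14 to 14.42 in CDS tumors, 10.59 to 12.87 in ES tumors, 9.0 to 10.82 in eMC CIC-DUX4 and 5.57 to 6.33 in eMC empty. Of the 10, between 4 and 10 were above the dip in CDS tumors, 5 to 8 in ES tumors, 3 to 9 in eMC CIC-DUX4 (3 arrays) and 0 in each array of eMC empty. Of the 9 tested endothelial markers, 8 rose and 0 fell in ES tumors against eMC empty (8 and 0 by limma's unadjusted p under 0.05, median 5.10, quantile 3.26), and 6 rose and 0 fell in CDS tumors against eMC CIC-DUX4 (7 and 0 by limma's unadjusted p under 0.05, median 4.62, quantile 9 and 0), where C1qtnf3 and Sparcl1 rose. In eMC CIC-DUX4 against eMC empty, where the described Sparcl1 difference was 5.89, 3 of the 9 rose, Egfl7, Plvap and Kdr (median 1.86). After quantile normalization 2 rose (median 0.19), and 0 fell on either scale. Of all genes, 46.4% were called higher there (median 2.07), or 8.13% after quantile normalization (median 0.01). For 5 pericyte markers the sum was 14.27 to 16.02 in CDS tumors, 11.97 to 14.02 in ES tumors, 11.35 to 11.56 in eMC CIC-DUX4 and 6.83 to 10.11 in eMC empty. Rgs5 made up most of that sum in both tumor groups (means 14.80 in CDS and 12.61 in ES tumors, 6.67 in eMC CIC-DUX4). It alone rose in CDS tumors against eMC CIC-DUX4 as deposited, and 0 of the 5 fell (median -0.22, quantile 2 and 0). In ES tumors against eMC empty 4 rose and 0 fell (quantile 3 and 1). Of the 5, between 2 and 5 were above the dip in CDS tumors, and 5 in eMC CIC-DUX4 (3 arrays). ES tumor 46 and eMC empty 7, the highest arrays of their groups for Sparcl1, also had the highest pericyte sums of their groups (14.02 and 10.11). The whole distribution of eMC empty 7 differed, with the highest 75th percentile of its group (6.97), and the pericyte markers Rgs5 and Kcnj8 were below its dip. After quantile normalization its Sparcl1 signal was 8.36, with 7.83 to 8.23 in the other eMC empty arrays. The endothelial sum of ES tumor 46 was the highest of the ES tumors (12.87), but that of eMC empty 7 was the lowest of its group (5.57). The part of these cells in the signal of Sparcl1 was not tested.

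Kazald1 and Pamr1, both secreted proteins, followed the fusion in the same way. Kazald1 had a lowest value of 5.93, a median of 10.14 and a highest of 10.95 in CDS tumors, and 2.23, 2.36 and 2.74 in ES tumors. It had 9.48, 9.36, 9.24 and 9.40 in eMC CIC-DUX4 and 3.94, 4.14, 3.43 and 3.18 in eMC empty. Both groups with the fusion were bright apart from CDS tumor 5 (5.93, below its dip of 8.09), and all ES tumor and eMC empty arrays were dim. Pamr1 had 6.51, 10.19 and 11.43 as lowest, median and highest value in CDS tumors and 2.34, 2.82 and 3.12 in ES tumors. It had 9.38, 9.25, 9.05 and 9.13 in eMC CIC-DUX4 and 3.67, 3.90, 3.69 and 3.47 in eMC empty. The lowest CDS value was again that of CDS tumor 5, and again no ES tumor or eMC empty array was above its dip.

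The means of Kazald1 were 9.53 ± 1.82 in CDS tumors (SD, n = 6), 2.42 ± 0.20 in ES tumors (n = 6), 9.37 ± 0.10 in eMC CIC-DUX4 (n = 4) and 3.67 ± 0.44 in eMC empty (n = 4). Those of Pamr1 were 9.79 ± 1.75 in CDS tumors, 2.73 ± 0.31 in ES tumors, 9.20 ± 0.14 in eMC CIC-DUX4, with 3.68 ± 0.18 in eMC empty. For both genes CDS tumors and eMC CIC-DUX4 overlapped as deposited. As a description, Kazald1 in eMC CIC-DUX4 exceeded its level in eMC empty at least 5.69-fold (log2 5.70, quantile 2.96) and Pamr1 at least 5.07-fold (5.52, quantile 2.64). In CDS tumors against eMC empty the bounds were at least 6.37-fold for Kazald1 (5.86, quantile 4.48) and at least 7.61-fold for Pamr1 (6.10, quantile 4.79). Against ES tumors they were at least 22.4-fold (7.11, quantile 6.75) and at least 26.7-fold (7.05, quantile 6.53).

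Neither gene passed the test in CDS tumors against eMC CIC-DUX4 as deposited. The difference was 0.16 ± 0.80 log2 for Kazald1 (SE, limma, adjusted p = 0.892) and 0.59 ± 0.77 for Pamr1 (limma, adjusted p = 0.595), and these wide errors leave room for a change either way. After quantile normalization both passed, at 1.52 for Kazald1 (limma, adjusted p = 0.00209) and 2.15 for Pamr1 (0.00143), with every CDS array above every eMC CIC-DUX4 array. CDS tumor 5 decided the deposited value of Pamr1, which was 1.24 (limma, adjusted p = 0.0314) without it. That array had 11.7% of its probe sets above the dip, with 20.1% to 57.3% in the other CDS tumors. Its Actb difference was 1.16 log2, with 0.31 to 1.28 in the others, and the part of RNA quality was not tested. On the quantile scale CDS tumor 5 had 9.01 for Kazald1, next to 9.39 to 10.97 in the other CDS tumors. It had 9.77 for Pamr1, within the 8.85 to 11.61 of the others.

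For Kazald1 and Pamr1 all 10 arrays of ES tumors and eMC empty were below the dip, so the differences are between signals not above background and no fold is given. Kazald1 had -1.25 ± 0.23 log2 (SE, limma, adjusted p = 0.000977, quantile -2.27), a call lost with an offset of 1 times the median (-0.83), with the arrays scaled to the same median (-0.95) and with all 4 groups in the same fit (limma, adjusted p = 0.216). Pamr1 had -0.95 ± 0.24 (limma, adjusted p = 0.00569), short of the required size, and was called after quantile normalization (-1.74, 0.000793). It was also called without ES tumor 46 (-1.03, limma, adjusted p = 0.0050) and without eMC empty 7 (-1.02, 0.00463).

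**Figure D2:**
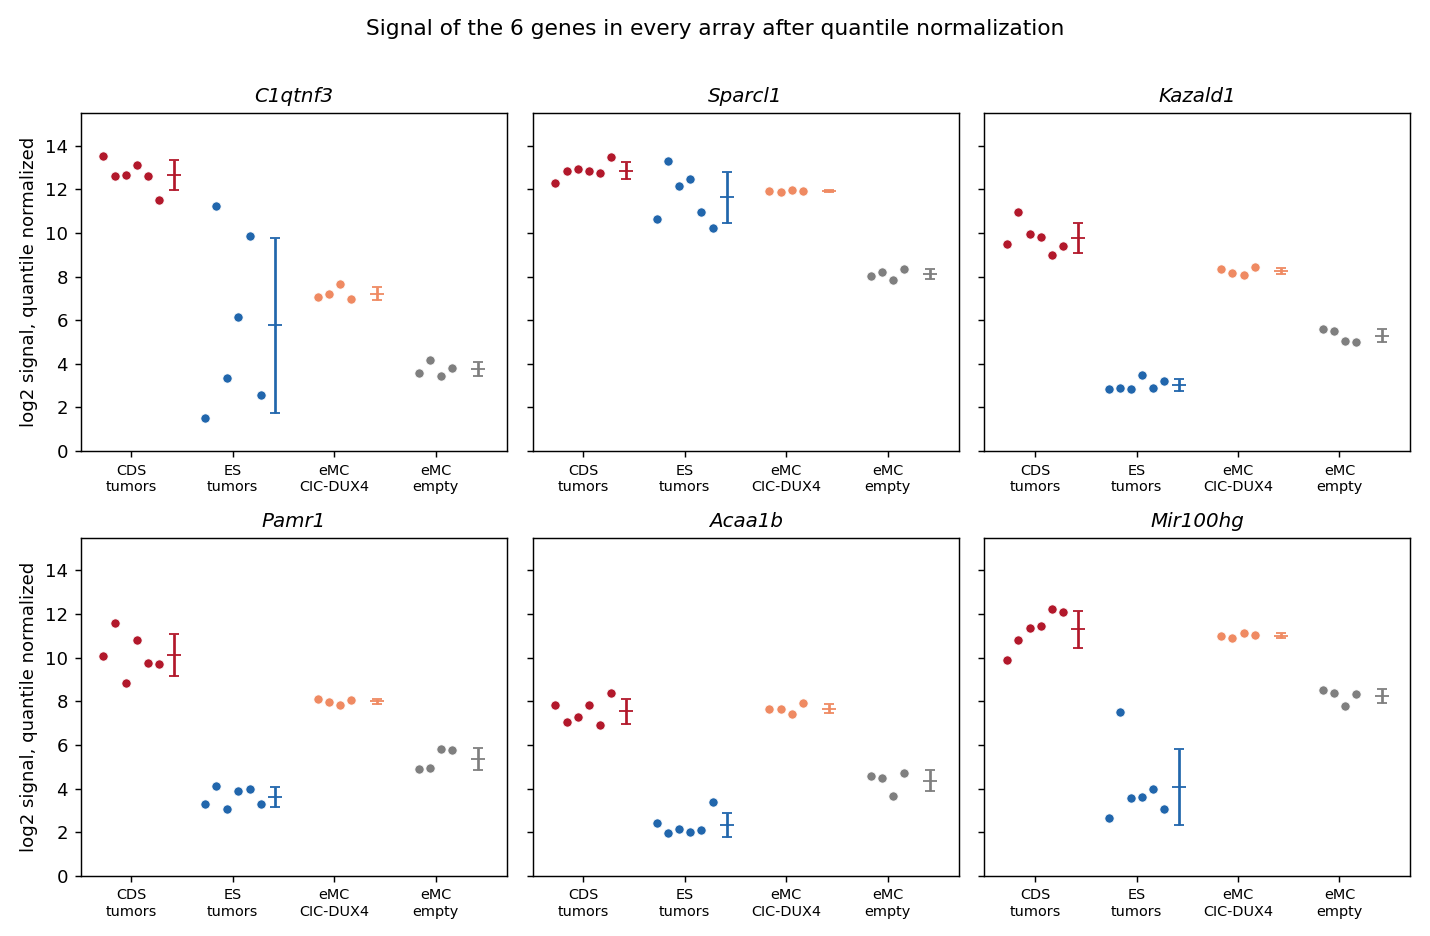
Log2 signal of the 6 genes after quantile normalization (vertical axis) in each of the 20 arrays, by group. Points are arrays and bars the mean ± SD of the group (n = 6, 6, 4 and 4). CDS tumor 5 no longer stands apart for Kazald1 and Pamr1, and ES tumor 46 still does for Mir100hg (7.49 against 2.64 to 3.98 in the other ES tumors).

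Acaa1b, the thiolase, was the member whose level in CDS tumors was not above that in eMC CIC-DUX4. Its lowest, median and highest values were 5.17, 7.73 and 9.17 in CDS tumors and 1.70, 1.77 and 2.40 in ES tumors. It had 9.10, 9.10, 8.75 and 9.03 in eMC CIC-DUX4 and 3.56, 3.74, 2.94 and 3.06 in eMC empty. The eMC CIC-DUX4 arrays were uniformly bright, CDS tumors were widely spread with CDS tumor 5 below its dip, and every ES tumor and eMC empty array was dim. The means were 7.64 ± 1.41 in CDS tumors (SD, n = 6), 1.95 ± 0.31 in ES tumors (n = 6), 8.99 ± 0.17 in eMC CIC-DUX4 (n = 4) and 3.33 ± 0.39 in eMC empty (n = 4). As a description, Acaa1b in eMC CIC-DUX4 exceeded its level in eMC empty at least 4.39-fold (log2 5.67, quantile 3.31). In CDS tumors it was at least 1.72-fold higher than in eMC empty (4.31, quantile 3.19) and at least 6.04-fold higher than in ES tumors (5.70, quantile 5.21).

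Acaa1b differed between CDS tumors and eMC CIC-DUX4 by -1.35 ± 0.77 log2 (SE, limma, adjusted p = 0.217), which did not pass, and -0.12 (0.765) after quantile normalization. The groups overlapped through CDS tumors 2 (8.76) and 4 (9.17). All 10 arrays of ES tumors and eMC empty were below the dip for Acaa1b, so their difference is between signals not above background. It was -1.38 ± 0.21 (SE, limma, adjusted p = 0.000298, quantile -2.02), a call lost with an offset of 1 times the median (-0.82) and with all 4 groups in the same fit (limma, adjusted p = 0.120).

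Mir100hg, the noncoding host transcript, was bright in both groups with the fusion. It had a lowest value of 10.22, a median of 11.41 and a highest of 12.61 in CDS tumors, and 2.20, 2.78 and 8.35 in ES tumors. It had 10.94, 10.73, 11.13 and 11.12 in eMC CIC-DUX4 and 5.09, 5.29, 4.47 and 8.67 in eMC empty. The low groups each had 1 bright array, ES tumor 46 and eMC empty 7, and CDS tumor 5, the lowest for Kazald1, Pamr1 and Acaa1b, was the highest CDS tumor here. The means were 11.46 ± 0.87 in CDS tumors (SD, n = 6), 3.56 ± 2.36 in ES tumors (n = 6), 10.98 ± 0.19 in eMC CIC-DUX4 (n = 4) and 5.88 ± 1.89 in eMC empty (n = 4). CDS tumors spanned the values of eMC CIC-DUX4, and ES tumors overlapped with eMC empty. The described log2 difference was 5.10 ± 0.83 (SE, quantile 2.76) between eMC CIC-DUX4 and eMC empty and 5.58 (quantile 3.06) between CDS tumors and eMC empty. Between CDS and ES tumors it was 7.90 ± 1.01 (quantile 7.24).

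Mir100hg differed between CDS tumors and eMC CIC-DUX4 by 0.48 ± 0.42 log2 (SE, limma, adjusted p = 0.421), which did not pass. Between ES tumors and eMC empty it had -2.32 ± 1.24 (limma, adjusted p = 0.133). ES tumor 46 decided that result, which was -3.28 (limma, adjusted p = 0.00554) without it. Without eMC empty 7 it was -1.39 (limma, adjusted p = 0.351). After quantile normalization, where the eMC empty arrays had 7.79 to 8.5 and all ES tumors were lower, Mir100hg was called at -4.19 (limma, adjusted p = 0.00124). ES tumor 46 had the highest sums of the ES tumors for markers of endothelium (12.87), pericytes (14.02), fibroblasts (14.32) and cartilage (7.89), and of the 7 cartilage markers only Comp was above its dip there. The part of other cells in its Mir100hg signal was not tested.

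The table of neighbouring genes places Ubash3b, a phosphatase that restrains tyrosine kinase signals, 215 kb before Mir100hg and Sorl1, a sorting receptor, 350 kb after it. Ubash3b was at least 97.8-fold higher in CDS than in ES tumors (limma, adjusted p = 1.54e-07, quantile 7.63) and at least 27.8-fold higher in CDS tumors than in eMC empty (limma, adjusted p = 1.48e-07, quantile 7.68). Unlike Mir100hg it also rose in CDS tumors against eMC CIC-DUX4, by 5.65 ± 0.73 log2 (SE, limma, adjusted p = 0.000146, quantile 7.27, 2 of 3 eMC CIC-DUX4 arrays above the dip). In eMC CIC-DUX4 it averaged 6.01, against 3.21 in eMC empty, a call as deposited (limma, adjusted p = 0.0247) that was lost after quantile normalization (0.41, 0.153). Sorl1 fell in CDS against ES tumors by 3.56 ± 0.93 (SE, limma, adjusted p = 0.0114, quantile -2.74, 2 of 6 CDS tumors above the dip).

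**Figure D3:**
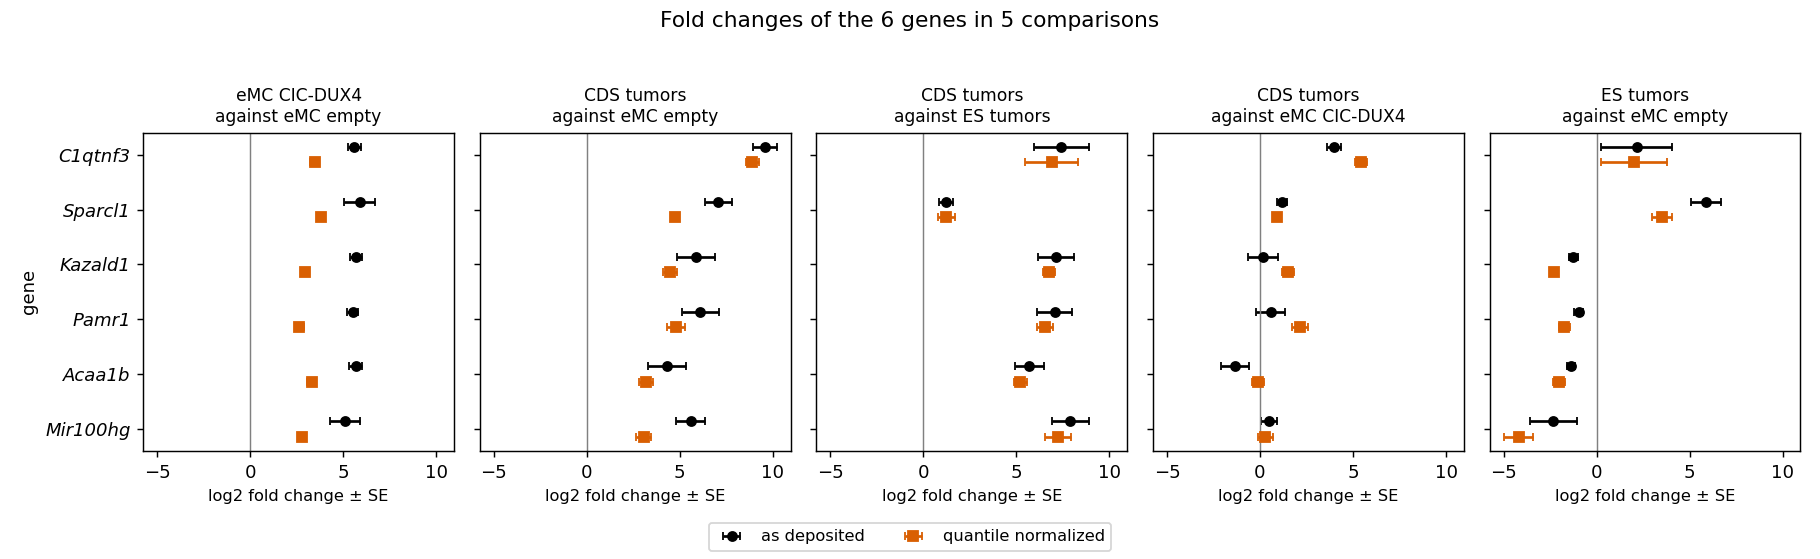
Log2 fold change ± SE (horizontal axis) of the 6 genes (rows) in the 5 comparisons (panels), as deposited (black circles) and after quantile normalization (orange squares). The first 3 panels are the contrasts that chose the genes and are a description. In the last 2, C1qtnf3 (3.97) stands to the right in CDS tumors against eMC CIC-DUX4 and Sparcl1 (5.87) in ES tumors against eMC empty.

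Over the 6 genes, all 6 passed the thresholds in each of the 3 contrasts that chose them. The share of all genes called higher there was 46.4% in eMC CIC-DUX4 against eMC empty (4.62% lower), 14.6% in CDS tumors against eMC empty (5.81% lower) and 11.2% in CDS against ES tumors (9.58% lower). After quantile normalization it was 8.13% in eMC CIC-DUX4 against eMC empty (4.81% lower), 17.6% in CDS tumors against eMC empty (19.2% lower) and 16.9% in CDS against ES tumors (16.2% lower). Of all genes, 2.41% were called higher in all 3 (297 genes, or 175 genes and 1.42% after quantile normalization). Of the 6, 2 were called higher in CDS tumors against eMC CIC-DUX4, against a background of 5.14%, and 0 lower, against 12.7%. By limma's unadjusted p under 0.05, 2 were higher and 0 lower there. After quantile normalization 3 were higher, with a background of 16.8%, and 0 lower, with 20.2%. The median fold change of the 6 was 0.53 as deposited and 1.22 after quantile normalization, beside -0.92 and -0.06 for all genes. Of the 6, 1 was called higher in ES tumors against eMC empty, against a background of 30.1%, and 2 lower, against 10.9%. Those 2, Kazald1 and Acaa1b, were below the dip in every array of both groups, as was Pamr1. After quantile normalization 1 was higher (background 17.3%) and 4 lower (18.9%), Mir100hg and these 3 genes. The median of the 6 was -1.10 as deposited and -1.88 after quantile normalization, beside 0.64 and -0.04 for all genes. The arrays of the groups did not overlap for all 6 genes in eMC CIC-DUX4 against eMC empty (47.8% of all genes apart and higher), for all 6 in CDS tumors against eMC empty (15.4%) and for 5 in CDS against ES tumors (8.92%), Sparcl1 being the exception. In the tested comparisons 2 of the 6 were apart and higher in CDS tumors than in eMC CIC-DUX4 (7.14%, and 20% of all genes apart and lower), or 4 after quantile normalization (22.2%). Between ES tumors and eMC empty 1 was apart and higher (21.2%) and 3 were apart and lower (14.7%), the 3 that were below the dip throughout. The 2 comparisons tested share arrays with the 3 that chose the genes. The counts of the 6 genes in them are therefore not independent of the choice, and setting them beside all genes is no test.

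The genes resembled each other to different degrees over the 20 arrays on the quantile scale. These correlations describe arrays that fall into 4 groups and share the groups' differences. The genes were chosen on such differences, so the choice itself favored high r values among them. Kazald1 and Pamr1 were closest (Pearson r = 0.97), and Kazald1, Pamr1, Acaa1b and Mir100hg had r between 0.88 and 0.97 with one another. Sparcl1 was least like the others, with r between 0.31 (Mir100hg) and 0.73 (C1qtnf3). Among all genes tested, the patterns nearest to Kazald1 were Itpr2, a calcium channel of the endoplasmic reticulum (0.98), Pamr1 (0.97) and Cytl1, a secreted protein made in cartilage (0.97). Nearest to Pamr1 were Itpr2 (0.98), Selenbp1 (0.97) and Kazald1 (0.97), and nearest to Acaa1b were Kazald1 (0.95), the cartilage collagen gene Col9a1 (0.95) and the Wnt pathway factor Tcf7l2 (0.94). Mir100hg was nearest to Dnm3os, a noncoding microRNA host as well (0.98), Fndc3a (0.97) and the complement protease gene C1s1 (0.97). C1qtnf3 was nearest to Fndc1 (0.92), Fgd5, a gene of endothelial cells (0.92), and Fos (0.91). Sparcl1 was nearest to the insulin receptor gene Insr (0.92), Arrdc3 (0.90) and R3hdm2 (0.87).

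Lists of related genes are given for each of the 6. Of 13 tested genes of the C1q and TNF related family, 5 rose and 1 fell in CDS tumors against eMC CIC-DUX4 (median 0.88, quantile 8 and 2). C1qa, C1qb and C1qc, the complement C1q chains made by macrophages, rose by 7.29, 4.82 and 4.24 log2 (limma, adjusted p = 0.000146, 0.0127 and 0.0241), with 1, 2 and 1 of the 3 eMC CIC-DUX4 arrays above the dip. C1ql3, a secreted synaptic protein, rose by 6.21 ± 0.81 (SE, limma, adjusted p = 0.000157), with 2 of those 3 arrays above the dip. Adipoq, the fat cell hormone adiponectin, fell by 5.10 ± 1.53 (SE, limma, adjusted p = 0.0330), with 3 of 6 CDS tumors above the dip. The log2 of the summed linear signal of 8 macrophage markers, which hold C1qa and C1qb, was 13.64 to 16.18 in CDS tumors, 14.21 to 15.83 in ES tumors, 14.20 to 14.58 in eMC CIC-DUX4 and 14.40 to 14.98 in eMC empty. Lyz2, the lysozyme gene, made up most of that sum, at 14.29 in CDS tumors, 14.28 in ES tumors, 14.12 in eMC CIC-DUX4, with 14.61 in eMC empty. Of the 8 markers, 3 rose and 0 fell in CDS tumors against eMC CIC-DUX4 (quantile 5 and 1), and 6 rose and 0 fell in ES tumors against eMC empty, on both scales. Their part in the C1q results was not tested. Between ES tumors and eMC empty 3 of the 13 rose, C1qa, C1qb and C1qc (at least 52.2-fold, 36.2-fold and 20.8-fold), and 2 fell (median 1.03, quantile -0.30). In CDS against ES tumors 6 rose and 0 fell (6 and 2 by limma's unadjusted p under 0.05, median 1.00), with C1ql3 at least 104-fold higher (limma, adjusted p = 4.01e-07) and C1qtnf1 at least 3.81-fold (0.00930). With the arrays scaled to the same median, these were 3 higher and 3 lower (median -0.10).

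In the SPARC family, 5 genes were tested beside Sparcl1. Of these 0 rose or fell in CDS tumors against eMC CIC-DUX4 by limma as deposited (3 and 0 by unadjusted p under 0.05). Smoc2 rose after quantile normalization (2.08, limma, adjusted p = 0.00107) and without CDS tumor 5 (1.23, 0.0464), beside 1.17 (0.0798) as deposited. In CDS against ES tumors 4 of the 5 rose and 0 fell (4 and 0 by unadjusted p, median 2.25). Smoc1 was at least 4.18-fold higher (limma, adjusted p = 0.00329), Smoc2 rose by 3.92 ± 1.21 log2 (SE, limma, adjusted p = 0.0279, 4 of 6 ES tumors above the dip), Fstl1 by 2.25 ± 0.40 (0.000639) and Sparc, which binds collagen, by 1.40 ± 0.22 (0.000211). After quantile normalization 3 rose, and 1 with the arrays scaled to the same median. Where Sparcl1 rose in ES tumors against eMC empty, 0 of the 5 rose and 3 fell on all 3 scalings (0 and 3 by unadjusted p): Fstl1 by 2.73 log2, Sparc by 2.13 and Smoc1 with both groups below the dip.

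Of the proteins with an IGFBP7-like Kazal or HtrA domain layout, 2 were tested. The serine protease genes Htra1 and Htra3 fell in CDS tumors against eMC CIC-DUX4, by 3.89 ± 0.85 and 2.74 ± 0.84 log2 (SE, limma, adjusted p = 0.00673 and 0.0368), with 4 of 6 CDS tumors above the dip for each, where Kazald1 did not pass. With the arrays scaled to the same median 0 of the 2 were called. Htra3 rose in eMC CIC-DUX4 against eMC empty by 4.87 ± 0.81 (SE, limma, adjusted p = 0.000752, quantile 2.62, 1 of 4 eMC empty arrays above the dip).

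Of 8 secreted proteins with CUB, EGF or sushi domains, the domains of Pamr1, 5 rose and 0 fell in CDS against ES tumors (6 and 0 by limma's unadjusted p under 0.05, median 2.23, quantile 6 and 0). Among them C1s1, a protease of the complement C1 complex, rose by 3.05 ± 0.35 log2 (SE, limma, adjusted p = 1.04e-05), and Pcolce, which enhances procollagen processing, by 3.02 ± 0.32 (3.68e-06). Between CDS tumors and eMC CIC-DUX4, 0 rose and 2 fell (1 and 2 by unadjusted p): Pcolce2 by 3.85 ± 1.14 (SE, limma, adjusted p = 0.0307) and Masp1 by 3.52 ± 0.95 (0.0213), with 2 of 6 CDS tumors above the dip for each. With the arrays scaled to the same median these counts were 1 higher and 0 lower. The test of ES tumors against eMC empty called 3 lower, Pcolce by 4.11, C1s1 by 1.51 and Masp1 below the dip in both groups, and Bmp1 rose by 2.10 as deposited (2 of 4 eMC empty arrays above the dip), with -0.71 after quantile normalization.

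Acaa1b belongs to peroxisomal beta oxidation, of which 17 other genes were tested. In CDS tumors against eMC CIC-DUX4, 0 rose and 8 fell (1 and 12 by limma's unadjusted p under 0.05, median -1.60 beside -0.92 for all genes), and 11 fell after quantile normalization (median -1.30 beside -0.06), 5 when the 3 arrays of high median were left out, and 4 with the arrays scaled to the same median. Ppara, the receptor that switches on peroxisomal and mitochondrial fat burning, was at least 3.85-fold lower in CDS tumors (limma, adjusted p = 0.000269). Pex11a, a peroxisome division protein, fell by 5.13 ± 0.93 log2 (SE, limma, adjusted p = 0.00187), the fatty acid transporter Abcd2 by 4.79 ± 1.02 (0.00579) and the reductase Decr2 by 4.18 ± 0.93 (0.00742). Of the 6 CDS tumors, 1, 1 and 2 were above the dip for Pex11a, Abcd2 and Decr2. In eMC CIC-DUX4 against eMC empty, 9 of the 17 rose and 1 fell as deposited (median 3.38 beside 2.07), but 1 rose and 0 fell after quantile normalization. The 1 was Ehhadh, the bifunctional enzyme that precedes the thiolase in the pathway, at least 1.15-fold higher (limma, adjusted p = 9.57e-05, quantile 1.47). Acaa1b itself differed by 3.31 on that scale. In CDS against ES tumors 3 rose and 2 fell, with Amacr, a racemase for branched fatty acids, higher by 3.74 ± 1.03 (SE, limma, adjusted p = 0.0161, 1 of 6 ES tumors above the dip), and with the arrays scaled to the same median 0 rose and 3 fell. Between ES tumors and eMC empty 2 rose and 5 fell, and 0 rose and 7 fell after quantile normalization.

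Summed markers of fat cells, a tissue rich in such enzymes, are given beside this list. For 5 adipocyte markers the sum was 12.81 to 15.20 in CDS tumors, 12.41 to 14.48 in ES tumors, 15.43 to 15.86 in eMC CIC-DUX4 and 16.41 to 17.27 in eMC empty, and their part in the Acaa1b values was not tested. For 7 cartilage markers the sum was 13.20 to 13.79 in CDS tumors and 4.34 to 7.89 in ES tumors. It was 13.02 to 13.24 in eMC CIC-DUX4 and 11.51 to 11.75 in eMC empty, so that both groups with the fusion had the higher sums. Col2a1 made up most of the sum except in ES tumors (means 13.12 in CDS tumors, 12.76 in eMC CIC-DUX4, 11.61 in eMC empty). Between the eMC groups 7 markers rose with the fusion and 0 fell (quantile 6 and 0). Set against eMC empty, CDS tumors had 2 higher and 0 lower (quantile 4 and 1). Set against eMC CIC-DUX4, they had 1 higher and 3 lower on both scales. Of these 7 markers, 2 to 5 were above the dip in CDS tumors, 0 to 1 in ES tumors, 7 in eMC CIC-DUX4 (3 arrays) and 1 in each eMC empty array, and the part of such cells in the results was not tested. For 8 fibroblast markers it was 12.70 to 14.50 in CDS tumors, 11.88 to 14.32 in ES tumors, 15.32 to 15.72 in eMC CIC-DUX4 and 15.84 to 16.52 in eMC empty. For 8 skeletal muscle markers it was 10.13 to 18.01 in CDS tumors, 4.41 to 17.42 in ES tumors, 12.61 to 12.79 in eMC CIC-DUX4 and 13.59 to 13.70 in eMC empty.

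The let-7 family represses growth genes, and 7 of its known targets and partners were tested, since Mir100hg hosts a let-7 gene. In CDS against ES tumors 3 rose and 1 fell. The chromatin protein gene Hmga2 rose by 10.25 ± 0.85 log2 (SE, limma, adjusted p = 1.97e-07), the cyclin gene Ccnd2 by 6.26 ± 0.36 (3.98e-09) and the RNA-binding protein gene Igf2bp3 by 3.96 ± 1.09 (0.0158), while Igf2bp1 fell by 3.99 ± 1.24 (0.0292). For Hmga2 1 of 6 ES tumors was above the dip, for Igf2bp3 5 of 6, and for Igf2bp1 1 of 6 CDS tumors. The same 4 genes were called in the same directions in CDS tumors against eMC CIC-DUX4, with Ccnd2 at 2.77, Igf2bp3 at 2.51, Hmga2 at 1.26 and Igf2bp1 at -4.76, but Hmga2 missed the size after quantile normalization (0.84) and 0 rose and 1 fell with the arrays scaled to the same median. In ES tumors against eMC empty 1 rose and 2 fell, with Hmga2 at -10.09 and Ccnd2 at -4.38 (limma, adjusted p = 1.92e-05 and 4.24e-06). Of the 7 genes, Ccnd2 and Hmga2 were high in the groups with high Mir100hg and, unlike Mir100hg, also in eMC empty, where they averaged 13.75 and 13.48. Igf2bp1 averaged 3.83 in CDS tumors, below its 7.82 in ES tumors. The described Mir100hg difference between the eMC groups was 5.10. There 4 of the 7 rose with the fusion and 1 fell, Hmga2 at -1.10, and 0 rose or fell after quantile normalization. The part of let-7 in these levels was not tested.

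**Figure D4:**
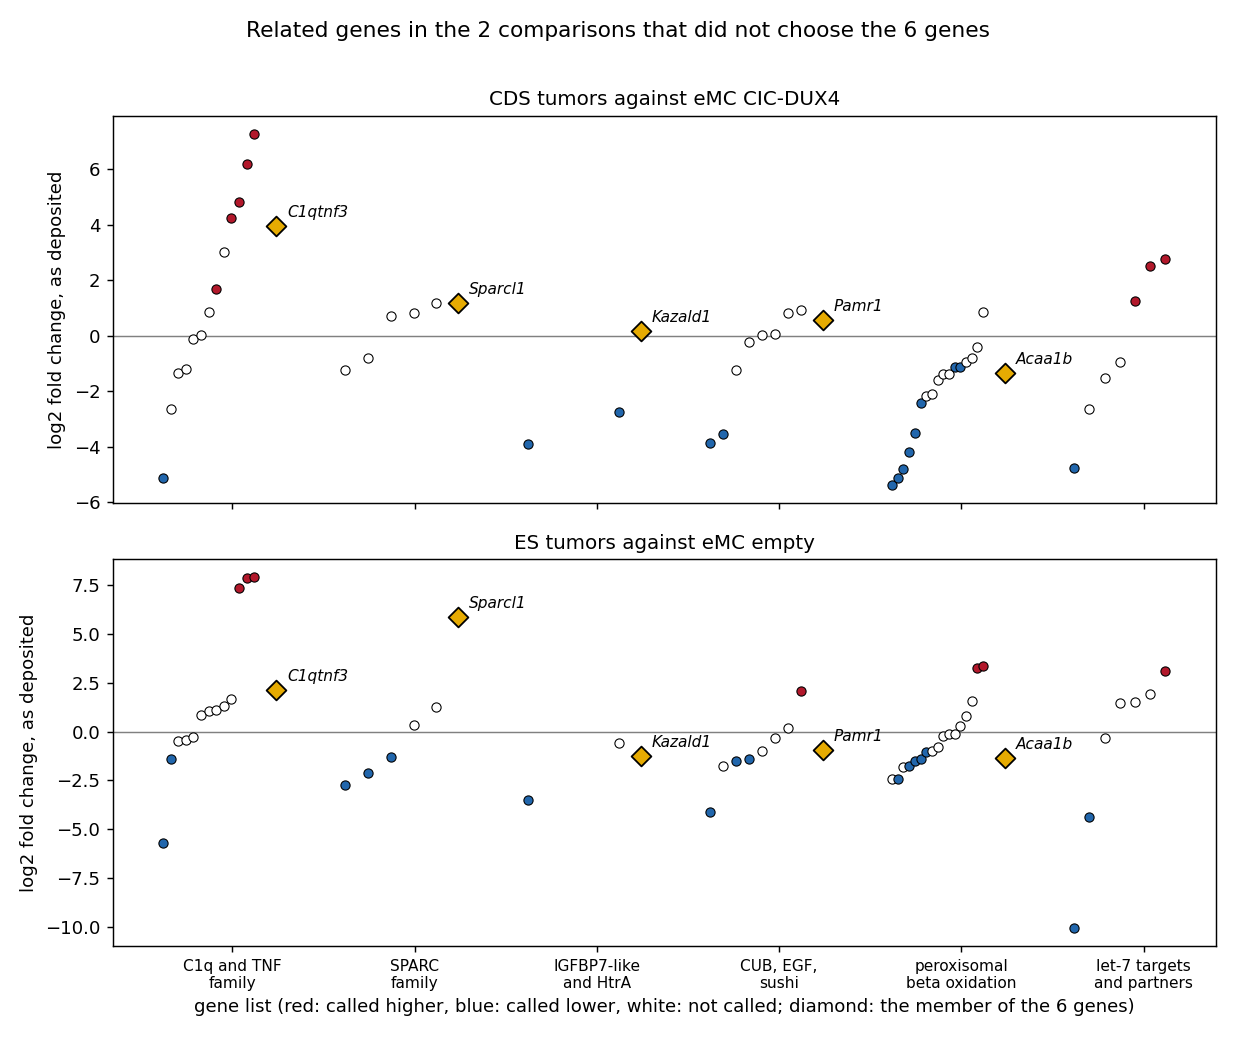
Log2 fold change as deposited (vertical axis) of the tested genes of 6 lists of relatives (horizontal axis) in CDS tumors against eMC CIC-DUX4 (top) and in ES tumors against eMC empty (bottom). Red points were called higher, blue lower and white not called, and diamonds are the members of the 6 genes that belong to a list. Sparcl1 (5.87) is above and the rest of its family at or below 1.25 in ES tumors against eMC empty, and 8 of 17 peroxisomal genes are blue in CDS tumors against eMC CIC-DUX4.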

How the data were processed

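The deposited table holds log2 signals of 20 arrays. The submitters' processing notes name MAS5, with neither version nor settings. Of 45141 probe sets, 104 controls were left out, and 28898 of the others had 1 gene symbol, 551 several and 15588 none. An offset of 1.42305 (0.25 of the median array's median) was added on the linear scale before taking log2 again. Probe sets had to exceed the median of their own array in 4 or more of 20 arrays (26897 passed). The brightest of a gene stood for it, which left 12343 genes. There were 0 pairs of identical arrays.

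Each comparison was fitted on its 2 groups with limma 3.58.1 (eBayes with trend, two-sided) in R 4.3.3, with calls requiring both an adjusted p (Benjamini-Hochberg) below 0.05 and a difference of 1 or more on the log2 scale. The number of arrays limits the precision. The dip is where the density of an array's log2 signals (bandwidth 0.35) is lowest between its dim and bright probe sets. Steps were tested on simulated data. Figures were drawn with matplotlib 3.10.9. The genes named are the 6 members, their 3 nearest patterns each, up to 4 called genes per list and comparison and any others needed to explain a count. Alternatives were another scaling, offset, filter, spread model, probe set rule and promoter motif, all 4 groups in the same fit, the replicate number as a block, and arrays left out. The members and lists were chosen with earlier results of these data known.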

Additional observations from a re-analysis of the deposited data

Results flagged for a closer look

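In each of the 24 combinations of a gene and a group, the most extreme array was set against the others. In 3 of them its gap to the nearest array, as a share of the group's range, was above Dixon's critical value, and chance alone flags about 1 in 20. Kazald1 in CDS tumor 5 was 5.93, with 9.62 as the nearest CDS tumor. After quantile normalization it was 9.01 and next to the others. Mir100hg in ES tumor 46 was 8.35, with 2.81 as the nearest ES tumor, and was still apart after quantile normalization (7.49). Sparcl1 in eMC empty 7 was 8.71, with 5.23 as the nearest eMC empty array. That gap only just exceeded the critical value, and after quantile normalization the 4 arrays had 7.83 to 8.36.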

How the results depend on the processing

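Members called as reported in CDS tumors against eMC CIC-DUX4 or in ES tumors against eMC empty kept their direction under all alternatives. In the first comparison Kazald1 and Pamr1, which passed with quantile normalization, did not. Kazald1 ranged from -1.64 (replicate block) to 1.52, and was also below 0 without CDS tumors 2, 3 or 4 in turn and without the 3 arrays of high median. Pamr1 ranged from -1.05 (replicate block) to 2.15. The block fit of this comparison rests on the 2 numbers that both groups hold, 5 and 6. The labels do not say that same-numbered arrays belong together. In CDS tumors against eMC CIC-DUX4 the members called higher were 2 as reported. They were 1 with the arrays scaled to the same median, without the trend in the spread, with all 4 groups in the same fit and without the 3 arrays of high median, and 2 to 3 with each array left out. The members called lower were 0 throughout, except 1 with the replicate number as a block (Acaa1b, -2.87, limma, adjusted p = 0.00380). That call, too, rests on those 2 shared numbers. In ES tumors against eMC empty the members called higher were 1 under all alternatives. Those called lower were 2 as reported, 4 after quantile normalization, 1 with the arrays scaled to the same median, 0 with an offset of 1 times the median and with all 4 groups in the same fit, and 2 to 4 with each array left out (4 without ES tumor 46). The cause was not tested. The looser promoter motif left 1 match.

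Same-numbered arrays did not deviate together in every pair (r from -0.188 to 0.383 in eMC CIC-DUX4 against eMC empty, -0.189 to 0.494 in CDS tumors against eMC empty and 0.047 to 0.285 in CDS tumors against eMC CIC-DUX4), so the numbers were not taken as pairs. No paired analysis was possible for the other 2 comparisons because their groups share no numbers. The block, which rests on 2 shared numbers there, left the members called higher in CDS tumors against eMC CIC-DUX4 at 2. All genes called lower became 6494 in place of 1568. Counts over all genes moved most with scaling: higher in eMC CIC-DUX4 than in eMC empty were 5733 as deposited, 1003 after quantile normalization and 15 with the arrays scaled to the same median.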
